A study of Mus musculus with 8 samples.

Results

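The 10 genes described here encode receptor chains for interleukins of the IL-1, IL-12 and IL-17 families, IL-23 being a member of the IL-12 family. They are Il1rl1, Il18r1, Il18rap, Il1r1, Il1rap, Il17rb, Il17re, Il12rb1, Il12rb2 and Il23r. They were picked by symbol, as receptors for the cytokines that activate each innate lymphoid branch, from the 34745 genes of a bulk RNA-seq table of mouse fetal liver progenitors. The libraries fall into 3 sorted populations. ILC1/3P (n = 2) is, per its gate, the population that has lost Flt3 and PD-1 and carries α4β7 and CD94. ILCP (n = 3) has lost Flt3 and CD94 and carries α4β7 and PD-1. CLP (n = 3) carries Flt3. Every gate also required CD45 and CD127 and the absence of CD25 and of the lineage markers. All 8 libraries came from untreated wild-type B6 mice, and the labels add an age of 6 to 8 weeks that the fetal tissue leaves unexplained. No label names a separate animal or litter per library, so p-values reflect the spread among these libraries, which may be technical.

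As background, innate lymphoid cells carry no antigen receptor and are switched on by cytokines from neighbouring cells. IL-12 and IL-18 act on group 1 cells and natural killer cells, IL-33 and IL-25 on group 2 cells, and IL-23 and IL-1β on group 3 cells, so the set of receptor chains a cell transcribes bears on which signals it can receive. The chains work in pairs. IL-18R1 binds IL-18 and pairs with the accessory chain IL18RAP. IL12RB1 is shared by the IL-12 receptor, where it pairs with IL12RB2, and by the IL-23 receptor, where it pairs with IL23R. ST2, the product of Il1rl1, and IL1R1 both use the accessory chain IL1RAP, and IL17RB and IL17RE both pair with IL17RA.

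The ILC1/3P libraries held 6310739 and 8082476 counts, the ILCP libraries 6043940 to 6905448 and the CLP libraries 4991939 to 7167619. At these depths a count of 0 allows up to 0.340 to 0.709 CPM (the count relative to the TMM-adjusted library size), depending on the library, for counting error only. Of the 8 gate genes, 3 that set the populations apart were ordered as the gates. Klrd1, which encodes CD94, had 1184 and 1629 CPM in ILC1/3P, against 19.1 to 71.5 CPM in ILCP and 40.8 to 65.5 CPM in CLP. Pdcd1, which encodes PD-1, had 10.2 and 17.5 CPM in ILC1/3P, 44.6 to 107 CPM in ILCP and 0 in CLP, and Flt3 had 0 in ILC1/3P, 0 to 1.28 CPM in ILCP and 401 to 570 CPM in CLP. Not all transcripts followed the surface gate. Il2ra, which encodes CD25, had 0.822 and 3.78 CPM in ILC1/3P, 6.26 to 9.26 CPM in ILCP and 0 in CLP. Itga4, the α4 chain, had 169 and 100 CPM in ILC1/3P against 417 to 490 CPM in ILCP and 302 to 412 CPM in CLP. Itgb7, the β7 chain, was higher in both populations gated on α4β7. It had 39.1 and 65.9 CPM in ILC1/3P and 28.3 to 113 CPM in ILCP, against 0.736 to 8.27 CPM in CLP. The summed 8 T cell markers moved with the populations, at 7044 to 9324 CPM in ILC1/3P, 4665 to 6491 CPM in ILCP and 350 to 714 CPM in CLP. Of them 7, 7 and 6 had a count in ILC1/3P, ILCP and CLP. The largest in ILC1/3P and ILCP were Trbc2, Cd3g and Trbc1. Trbc2 had 3304 and 4396 CPM in ILC1/3P, 1681 to 2229 CPM in ILCP and 327 to 674 CPM in CLP. Cd3g had 2245 and 3463, 1251 to 2096 and 0 to 17.6 CPM in the same order. Trbc1 had 1386 and 1235, 1635 to 2039 and 16.4 to 23.7 CPM, and Cd3d 92.6 and 221, 63.3 to 96.3 and 0 to 0.368 CPM. Cd8a reached 24.6 CPM and Cd3e 8.45 CPM, both in ILCP. Cd4 was at 0 in ILC1/3P and ILCP, and Trac, the T cell receptor α constant gene, did not exceed 13.5 CPM in any library. T cells use several of the receptors described here, and the part of these transcripts in the results was not tested. In bulk RNA, fewer cells that transcribe a gene and less of its RNA per cell cannot be told apart.

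The promoters of 4 of the receptor genes are shown because they had the highest mean CPM of the set in ILCP, and because 2 of them, Il17rb and Il23r, had no count in CLP. Each is a RefSeq window on GRCm38.p6 of 300 bases, from 250 before the transcription start to 50 after it, written 5′ to 3′ along the gene's own strand. Capitals mark matches to short core motifs searched on both strands: AGATAA for GATA factors, AGGTCA for ROR factors, TGTGGT for RUNX factors, GGTGTGA for T-box factors and CTTTGA for TCF and LEF factors.
Il18r1, chr1:40465371-40465670, plus strand: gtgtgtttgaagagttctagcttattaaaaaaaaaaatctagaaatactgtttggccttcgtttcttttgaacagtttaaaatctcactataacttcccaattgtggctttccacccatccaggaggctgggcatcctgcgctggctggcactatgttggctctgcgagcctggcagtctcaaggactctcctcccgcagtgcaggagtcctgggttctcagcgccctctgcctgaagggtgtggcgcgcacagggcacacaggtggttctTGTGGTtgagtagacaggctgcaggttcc
Il18rap, chr1:40515112-40515411, plus strand: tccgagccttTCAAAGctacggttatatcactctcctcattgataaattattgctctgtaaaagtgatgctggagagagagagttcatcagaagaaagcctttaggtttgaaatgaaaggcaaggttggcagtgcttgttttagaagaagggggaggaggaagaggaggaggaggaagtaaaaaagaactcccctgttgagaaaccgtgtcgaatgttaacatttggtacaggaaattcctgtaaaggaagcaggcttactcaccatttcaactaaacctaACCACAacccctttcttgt
Il23r, chr6:67491806-67492105, minus strand: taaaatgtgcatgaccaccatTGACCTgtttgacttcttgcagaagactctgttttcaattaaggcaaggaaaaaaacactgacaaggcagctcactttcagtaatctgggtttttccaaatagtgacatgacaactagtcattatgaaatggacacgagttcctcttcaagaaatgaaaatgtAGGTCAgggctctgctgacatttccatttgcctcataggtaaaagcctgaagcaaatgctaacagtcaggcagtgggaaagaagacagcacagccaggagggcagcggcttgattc
Il17rb, chr14:30008847-30009146, minus strand: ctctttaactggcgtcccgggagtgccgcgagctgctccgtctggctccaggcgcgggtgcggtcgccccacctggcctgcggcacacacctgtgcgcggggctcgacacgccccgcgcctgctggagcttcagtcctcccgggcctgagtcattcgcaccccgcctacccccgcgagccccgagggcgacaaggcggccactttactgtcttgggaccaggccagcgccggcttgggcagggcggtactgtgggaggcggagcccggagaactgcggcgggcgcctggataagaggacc

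The Il23r window held AGGTCA at position -66 and its reverse complement TGACCT at -229, counted from 0 at the start site. Of all 32851 promoter windows of this length in the table, 16.3% held that motif on either strand. The Il18r1 window shown is 1 of 3 listed for the gene and the only one of them with a match. It held TGTGGT at 22, and the Il18rap window held its reverse complement ACCACA at 32 and TCAAAG, the reverse complement of CTTTGA, at -240. The shares of all windows with these motifs were 16.8% for TGTGGT and 16% for CTTTGA. The Il17rb window held none of the 5 motifs. Over the 13 windows listed for 9 of the 10 receptor genes, TGTGGT was in 3, AGGTCA in 2, AGATAA in 2 (11.2% of all windows), CTTTGA in 1 and GGTGTGA in 0 (3.98% of all windows). A match describes letters in the window and shows no binding, and Il12rb1 was not in the promoter table.

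The receptor genes that changed against CLP were all higher, in CD94+ ILC1/3P and in PD-1+ ILCP alike. In ILC1/3P against CLP, 6 of the 10 were called higher and 0 lower by edgeR's quasi-likelihood test at an adjusted p under 0.05: Il18r1, Il18rap, Il12rb1, Il12rb2, Il23r and Il17rb. Among all 13436 genes tested, 11.8% were called higher in that comparison and 11.7% lower. In ILCP against CLP, 5 of the 10 were called higher and 0 lower: Il18r1, Il18rap, Il12rb1, Il23r and Il17rb. Here the shares over all genes were 3.91% higher and 2.87% lower. All 10 genes passed the filter on low counts. At an unadjusted p under 0.05, 8 of the 10 passed in ILC1/3P against CLP and 9 in ILCP against CLP, none of them lower, and DESeq2 called the same numbers, 8 and 9, again all higher. The median log2 fold change of the 10 genes was 4.79 in ILC1/3P against CLP, or 3.76 with the genes absent from CLP at their lower bounds, beside -0.25 over all genes tested. It was 4.51 in ILCP against CLP, beside 0.01 over all genes. Both comparisons use the same CLP libraries.

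**Figure D1:**
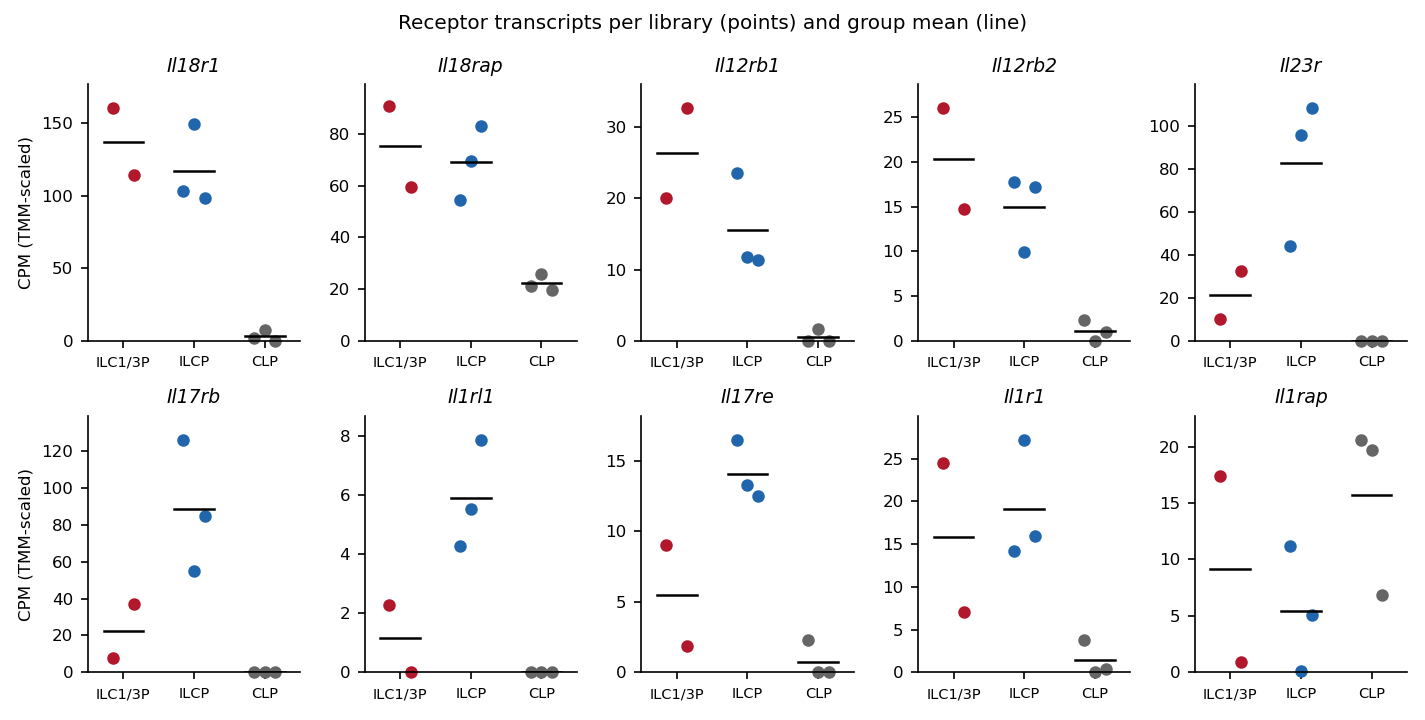
CPM of each of the 10 receptor genes (a panel each, with its own linear axis from 0), with 1 point per library, a line at the mean, and ILC1/3P left, ILCP in the middle and CLP right. Il17rb and Il23r sat at 0 in all 3 CLP libraries, Il18r1 reached at most 7.17 CPM there, and Il1rap alone had its highest mean in CLP.

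The IL-18 receptor pair was high in both innate lymphoid populations and lower in CLP. Il18r1, the ligand-binding chain (ENSMUSG00000026070, mm10 chromosome 1, 40465552 to 40500854), had 160 and 114 CPM in ILC1/3P, 103, 149 and 98.4 CPM in ILCP, and 2.27, 7.17 and 0 CPM in CLP. The CLP libraries lay far below all 5 others, and the ILC1/3P and ILCP libraries overlapped. Against CLP the log2 fold change was 5.49 ± 0.88 (SE) in ILC1/3P with an adjusted p of 0.000979, and 5.26 ± 0.84 in ILCP with an adjusted p of 0.00231. The call in ILCP was lost when no filter on low counts was used, at an adjusted p of 0.0612. Il18rap, the signalling partner (ENSMUSG00000026068, chromosome 1, 40515362 to 40551705), had 90.8 and 59.6 CPM in ILC1/3P, 54.5, 69.4 and 83.1 CPM in ILCP, and 21.2, 25.9 and 19.6 CPM in CLP. Unlike its partner, it was well above 0 in every CLP library. Its log2 fold change against CLP was 1.76 ± 0.35 in ILC1/3P (adjusted p 0.00399) and 1.63 ± 0.33 in ILCP (adjusted p 0.00975). The ILCP call was lost without CLP replicate 3 (adjusted p 0.0545) or without ILCP replicate 3 (adjusted p 0.0522). Between ILC1/3P and ILCP, neither gene was called, with log2 fold changes of 0.23 ± 0.75 for Il18r1 and 0.13 ± 0.36 for Il18rap that turned to -0.38 and -0.49 when libraries were scaled by library size only. Natural killer cells respond to IL-18 and IL-12, and the 8 summed natural killer and ILC1 markers were at 7007 to 12954 CPM in ILC1/3P, 1447 to 1658 CPM in ILCP and 147 to 210 CPM in CLP. Counts were found for 8, 8 and 5 of them, Eomes, Ifng and Ncr1 being at 0 in CLP. Most of the sum in ILCP was Nkg7, at 1363 to 1564 CPM. Klrb1c was called lower in ILCP than in CLP by edgeR, averaging 2.43 and 9.63 CPM (adjusted p 0.0229). Klrd1 averaged 44.7 and 52.2 CPM in ILCP and CLP, and the other markers averaged more in ILCP than in CLP. The part of cells with these markers in the levels of these receptor genes was not tested.

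The 3 chains of the IL-12 and IL-23 receptors were nearly absent from CLP, and Il23r entirely so. Il12rb1, the shared chain (ENSMUSG00000000791, chromosome 8, 70808449 to 70821424), had 20.1 and 32.6 CPM in ILC1/3P, 23.5, 11.7 and 11.4 CPM in ILCP, and 0, 1.66 and 0 CPM in CLP. Only CLP replicate 2 had counts, so without it no CLP count was left and no log2 fold change is meaningful, while both calls held. The other 2 populations overlapped. The log2 fold change against CLP was 5.66 ± 1.32 in ILC1/3P (adjusted p 0.00898) and 4.90 ± 1.24 in ILCP (adjusted p 0.0356). The ILCP call was lost without CLP replicate 1 (adjusted p 0.0921) or 3 (0.109), without ILCP replicate 1 (0.113), 2 (0.0608) or 3 (0.0777), with library size only (0.0533), and with only the libraries of the 2 populations in the fit (0.0641). Il12rb2, the chain that makes the receptor respond to IL-12 (ENSMUSG00000018341, chromosome 6, 67291318 to 67376188), had 26 and 14.7 CPM in ILC1/3P, 17.8, 9.95 and 17.2 CPM in ILCP, and 2.38, 0 and 1.04 CPM in CLP. Every CLP library was below every other library. The gene was called in ILC1/3P, with a log2 fold change of 4.09 ± 1.07 and an adjusted p of 0.0163, which became 0.0576 without CLP replicate 3 and 0.0566 without ILC1/3P replicate 1. In ILCP the log2 fold change was 3.65 ± 1.01 and the adjusted p 0.0533, so the gene was not called, and it was called without ILC1/3P replicate 2 (0.0479), with no filter on low counts (0.00273) and by DESeq2 (0.000419). Exons of Il12rb2 share 1519 bases with those of Serbp1, an RNA-binding protein gene that averaged 376, 316 and 307 CPM in ILC1/3P, ILCP and CLP, and the use of strand in counting is not given, so its counts are uncertain.

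Il23r, the chain that makes the receptor respond to IL-23 (ENSMUSG00000049093, chromosome 6, 67422932 to 67491855), had 10 and 32.6 CPM in ILC1/3P, 44.2, 95.6 and 108 CPM in ILCP, and 0 in each CLP library. The 3 populations did not overlap, with ILCP at the top. Counts pooled over a population were at least 135-fold higher in ILC1/3P (adjusted p 0.000199) and at least 579-fold higher in ILCP (adjusted p 0.000101), against a floor of 3 counts pooled over CLP. These calls held in all the alternatives run. The same gene's log2 fold change in ILC1/3P against ILCP was -1.96 ± 0.64, with an unadjusted p of 0.0126 and an adjusted p of 0.0673. The 12 group 3 markers, which include Il23r and Il1r1, summed to 2697 to 2869 CPM in ILC1/3P, 1801 to 2168 CPM in ILCP and 258 to 342 CPM in CLP. Counts were found for 10, 11 and 6 of them. Ltb was the largest, at 1270 and 1651 CPM in ILC1/3P, 712 to 826 CPM in ILCP and 140 to 183 CPM in CLP. The part of such cells in the Il23r levels was not tested.

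The group 2 receptor chains Il17rb and Il1rl1 were both absent from CLP and both highest in ILCP, at very different levels. Il17rb, the IL-25-binding chain (ENSMUSG00000015966, chromosome 14, 29996141 to 30008896), had 8.06 and 37.1 CPM in ILC1/3P, 126, 54.9 and 84.9 CPM in ILCP, and 0 in each CLP library. As for Il23r, the 3 populations did not overlap. It was at least 140-fold higher in ILC1/3P (adjusted p 0.000272) and at least 618-fold higher in ILCP (adjusted p 0.000145) than in CLP, and these calls held in all the alternatives run. Its exons share 141 bases with Actr8, a chromatin remodelling subunit gene on the other strand, which averaged 13, 32.9 and 45.3 CPM in ILC1/3P, ILCP and CLP, and the part of that overlap in the counts was not tested. Il1rl1, which encodes the IL-33 receptor ST2 (ENSMUSG00000026069, chromosome 1, 40429570 to 40465415), had 2.3 and 0 CPM in ILC1/3P, 4.27, 5.53 and 7.88 CPM in ILCP, and 0 in each CLP library. Those are 14 and 0 counts in ILC1/3P and 30, 40 and 56 counts in ILCP. Pooled counts were at least 9.51-fold those of CLP in ILC1/3P and at least 41.3-fold in ILCP, with adjusted p-values of 0.0823 and 0.0678, so neither was called. In ILCP the gene was called without ILC1/3P replicate 1 (adjusted p 0.0332) or 2 (0.0271), with only the libraries of the 2 populations in the fit (0.0226), with no filter (0.0187) and by DESeq2 (0.00167). In ILC1/3P it was called without ILC1/3P replicate 2 (0.0429) and by DESeq2 (0.0404).

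ST2 is also a mast cell receptor. The summed level of the mast cell and basophil markers was 189 to 251 CPM in ILC1/3P, 485 to 633 CPM in ILCP and 2.83 to 4.42 CPM in CLP, with counts for 3, 4 and 3 of the 12 genes. In ILC1/3P and ILCP most of it was Cpa3, a carboxypeptidase gene, at 185 and 237 CPM in ILC1/3P, 481 to 627 CPM in ILCP and 0 to 2.82 CPM in CLP. The IgE receptor genes Fcer1a and Ms4a2, the tryptase genes Tpsab1 and Tpsb2, and Mcpt4, Mcpt8, Mrgprb1 and Prss34 were at 0 in every library. Hdc, the histamine-forming enzyme gene, had 4.44 and 12.3 CPM in ILC1/3P, 0.967 to 4.27 CPM in ILCP and 0.889 to 4.42 CPM in CLP. That order differs from the order of Il1rl1. Cma1 had 0 and 2.36 CPM in ILC1/3P, 0, 5.25 and 1.97 CPM in ILCP and 0 in CLP. The means of Cma1, and those of Cpa3, follow the same order as those of Il1rl1. Gata2 had counts in ILCP replicate 3 (2.11 CPM) and CLP replicate 3 (0.148 CPM) alone. The part of these transcripts in the Il1rl1 levels was not tested. The 12 group 2 markers, which include Il17rb and Il1rl1 themselves, summed to 1812 to 2057 CPM in ILC1/3P, 2947 to 3375 CPM in ILCP and 43.4 to 64.8 CPM in CLP, with counts for 11, 11 and 6 of them. Il5 was the one at 0 in ILC1/3P and Il13 the one at 0 in ILCP, and both were among the 6 at 0 in CLP, with Bcl11b, Klrg1, Il17rb and Il1rl1. Arg1 was the largest in ILC1/3P and ILCP, averaging 1096 and 1524 CPM, followed by Icos and Rora. Klrg1 averaged 28.5 CPM in ILC1/3P and 4.4 CPM in ILCP, Areg 22 and 14.5 CPM, and Il13 4.13 and 0 CPM. The others averaged more in ILCP than in ILC1/3P. Hpgds was highest in CLP, averaging 4.03, 4.43 and 10.1 CPM in ILC1/3P, ILCP and CLP.

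Il17re, Il1r1 and Il1rap were at 27.2 CPM or less in every library, and none was called in any of the 3 comparisons. Il17re, the IL-17C receptor chain (ENSMUSG00000043088, chromosome 6, 113458484 to 113470758), had 9.05 and 1.89 CPM in ILC1/3P, 16.5, 13.3 and 12.5 CPM in ILCP, and 2.27, 0 and 0 CPM in CLP. Its ILCP libraries lay above all others, at a log2 fold change of 4.12 ± 1.44 against CLP (adjusted p 0.126), and ILC1/3P against CLP gave 2.77 ± 1.45 (adjusted p 0.193). Without CLP replicate 1, the only CLP library with counts, both were called, at adjusted p-values of 0.0141 in ILC1/3P and 0.0169 in ILCP. DESeq2 and the fit with no filter called ILCP, at 0.0138 and 0.0159. Il1r1, the signalling IL-1 receptor (ENSMUSG00000026072, chromosome 1, 40225080 to 40317257), had 24.5 and 7.09 CPM in ILC1/3P, 14.2, 27.2 and 16 CPM in ILCP, and 3.74, 0 and 0.445 CPM in CLP. Every CLP library was below every other, with log2 fold changes of 3.43 ± 1.19 in ILC1/3P (adjusted p 0.0577) and 3.71 ± 1.15 in ILCP (0.0842). Without CLP replicate 1 both were called, at 0.0107 in ILC1/3P and 0.019 in ILCP. DESeq2 (0.0103 and 0.00446) and the fit with no filter (0.00331 and 0.00193) also called ILC1/3P and ILCP, and the fit without ILC1/3P replicate 2 called ILC1/3P (0.049).

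Il1rap, the accessory chain shared by ST2 and IL1R1 (ENSMUSG00000022514, chromosome 16, 26581704 to 26730117), was the 1 gene of the set with its highest mean in CLP. It had 17.4 and 0.945 CPM in ILC1/3P, 11.2, 0.138 and 5.07 CPM in ILCP, and 20.6, 19.7 and 6.82 CPM in CLP. The libraries of each population spanned a wide range, and all 3 populations overlapped. The log2 fold change was -0.76 ± 1.36 in ILC1/3P (adjusted p 0.733) and -1.52 ± 1.22 in ILCP (adjusted p 0.594) against CLP. In ILCP replicate 2 the gene rested on 1 count while Il1rl1 had 40 and Il1r1 had 197, so the accessory chain was close to undetected in a library with counts of both chains that pair with it. Its exons share 552 bases with Gm20319, an antisense gene that averaged 0, 0.236 and 0.227 CPM in ILC1/3P, ILCP and CLP.

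**Figure D2:**
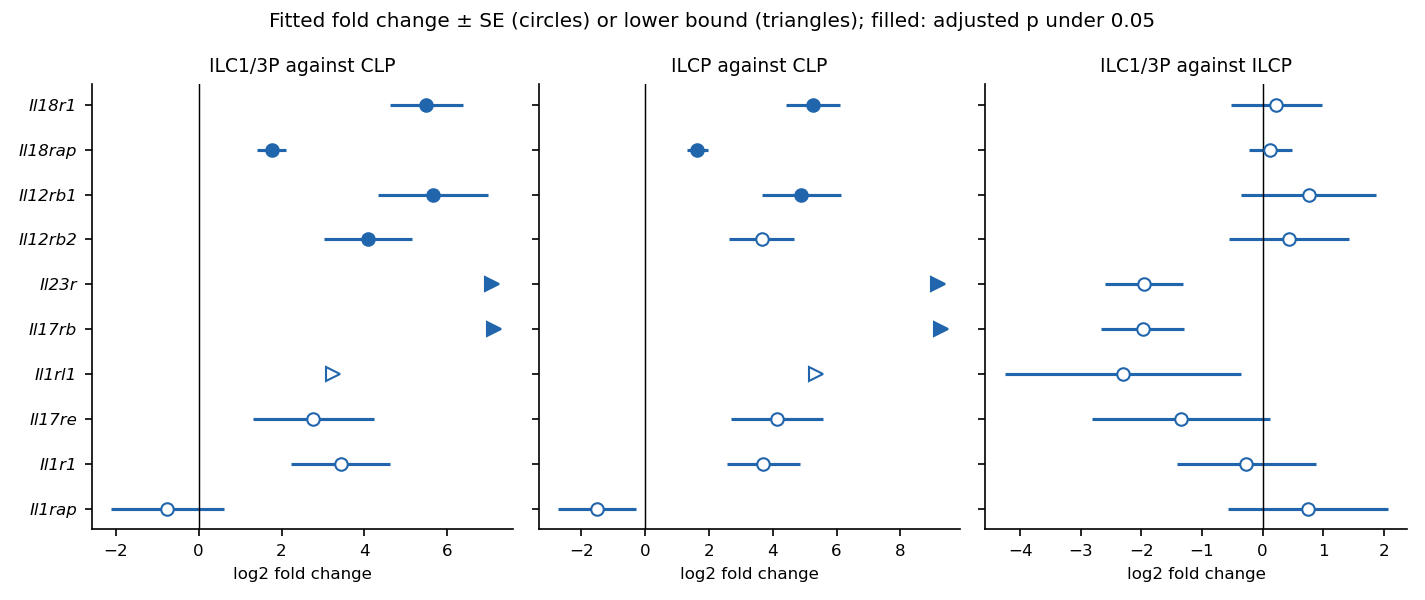
Log2 fold changes of the 10 receptor genes from edgeR for ILC1/3P against CLP, ILCP against CLP and ILC1/3P against ILCP, as circles with their SE or, for genes with no CLP count, as triangles at the lower bound. Filled symbols mark an adjusted p under 0.05: 6 genes are called in ILC1/3P against CLP, 5 in ILCP against CLP and 0 in ILC1/3P against ILCP.

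Set directly against each other, ILC1/3P and ILCP gave no called receptor gene with edgeR, in a comparison where 8.06% of all genes tested were called higher and 8.25% lower. Il23r and Il17rb were the 2 genes with an unadjusted p under 0.05, both lower in ILC1/3P than in ILCP by estimate, with log2 fold changes of -1.96 ± 0.64 and -1.98 ± 0.68 and adjusted p-values of 0.0673 and 0.0809. DESeq2 called both lower in ILC1/3P, with adjusted p-values of 0.026 for Il23r and 0.0351 for Il17rb. Both were also called with library size only (0.0238 and 0.0328) and with no filter on low counts (0.00516 and 0.00388). Without ILC1/3P replicate 2, the library with more of both transcripts, the log2 fold changes were -3.03 for Il23r (adjusted p 0.0378) and -3.45 for Il17rb (0.0222). The ILC1/3P libraries lay below all ILCP libraries for 4 of the 10 genes, Il1rl1, Il17rb, Il17re and Il23r, and above them for 0. Over all genes, 24.7% did so in the lower direction and 20.2% in the higher. For Il1rl1 and Il17re the log2 fold changes were -2.31 ± 1.95 (adjusted p 0.472) and -1.35 ± 1.47 (0.587). The median of the 10 genes was -0.07 in this comparison, beside -0.23 over all genes tested.

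For the 2 comparisons with CLP, libraries did not overlap for 7 of the 10 genes in ILC1/3P, all higher, while 23.3% of all genes did so in that direction and 29.1% in the other. In ILCP it was 9 of the 10, all higher, beside 14.1% of all genes higher and 14% lower. The gene outside this count in ILCP was Il1rap, and the genes outside it in ILC1/3P were Il1rap, Il1rl1 and Il17re.

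Levels of different genes were compared per length, with the authors' FPKM, which is not TMM-adjusted. In ILC1/3P the IL-18 receptor pair led, with mean FPKM levels of 11.5 for Il18r1 and 7.26 for Il18rap. Il12rb1 at 6.43, Il23r at 5.91, Il12rb2 at 3.25 and Il17rb at 2.94 followed, and Il1r1 at 1.18, Il1rap at 0.456, Il17re at 0.361 and Il1rl1 at 0.0783 came last. Each neighbouring pair in that order had overlapping libraries, so only distant places in it are apart. In ILCP Il23r led at 36.2 (20.7 to 47.8) and Il17rb followed at 18.8 (10.9 to 27.8), ahead of Il18r1 at 15 (12.7 to 18.3) and Il18rap at 10.2 (8.51 to 12.3). These 4 overlapped from each to the next, except that Il18r1 stayed above Il18rap. Il12rb1 at 6.06, Il12rb2 at 3.7, Il1r1 at 2.13, Il17re at 1.4, Il1rl1 at 0.587 and Il1rap at 0.416 came after them. Among these, neighbours overlapped except Il17re (1.24 to 1.72) above Il1rl1 (0.449 to 0.787). In CLP Il18rap led alone at 3.38 (2.85 to 3.79), followed by Il1rap at 1.2 (0.492 to 1.68), and the other 8 averaged 0.413 or less. With the length of merged exons in GENCODE M21 in place of the authors' length, a choice made after seeing the data, the order changed among neighbours. In ILC1/3P Il12rb1 then averaged 4.5, below Il23r at 5.91, and in ILCP it averaged 4.24, below Il12rb2 at 4.4. Il18r1 then averaged 20.4 in ILC1/3P and 26.6 in ILCP, and Il17re 2.67 in ILCP. In ILC1/3P Il17rb also passed Il12rb2 and Il17re passed Il1rap, and in CLP Il1r1 and Il17re passed Il12rb1.

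Ratios between the 2 chains of a receptor are given per library, without a test. Il18r1 over Il18rap, in FPKM, was 1.53 and 1.67 in ILC1/3P, 1.64, 1.87 and 1.03 in ILCP, and 0.093, 0.241 and 0 in CLP. The ligand-binding chain was above its partner in all 5 libraries of ILC1/3P and ILCP and below it in all 3 of CLP. Il23r over Il12rb1 was 0.577 and 1.15 in ILC1/3P and 2.18, 9.4 and 10.9 in ILCP, without overlap. Il12rb2 over Il12rb1 was 0.824 and 0.286 in ILC1/3P and 0.482, 0.539 and 0.959 in ILCP with the authors' lengths, below 1 in every library. With the GENCODE exon lengths, chosen after seeing the data, it was 1.4 and 0.486 in ILC1/3P and 0.82, 0.916 and 1.63 in ILCP, so which chain was higher depended on the length. The sides of 1 did not change for Il18r1 over Il18rap or for Il23r over Il12rb1. For the IL-25 receptor, Il17rb had its lowest level in CLP and Il17ra its highest. Il17rb had 1.15 and 4.72 FPKM in ILC1/3P, 27.8, 10.9 and 17.8 FPKM in ILCP and 0 in CLP, while Il17ra had 0.17 and 1.46 FPKM in ILC1/3P, 0.312, 0.323 and 1.43 FPKM in ILCP, and 9.9, 5.79 and 5.25 FPKM in CLP.

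**Figure D3:**
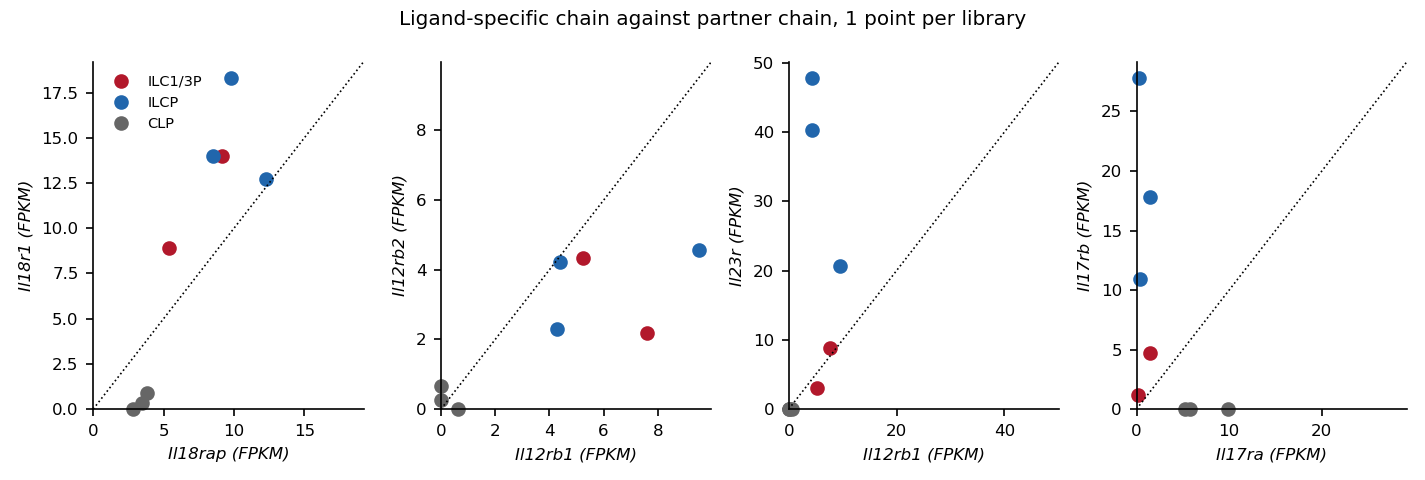
FPKM of the ligand-specific chain (vertical axis) against its partner chain (horizontal axis), 1 point per library, coloured by ILC1/3P, ILCP and CLP, with a dotted line at equal levels. Il18r1 lies above Il18rap in ILC1/3P and ILCP and below it in CLP. Il17rb is at 0 in the 3 CLP libraries, which have the highest Il17ra, 5.25 to 9.9 FPKM.

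Several of the genes lie side by side in the mouse genome at very different levels. On chromosome 1, 6 receptor genes of the IL-1 family, Il1r2, Il1r1, Il1rl2, Il1rl1, Il18r1 and Il18rap, fill 477.6 kb. The end of Il1rl1 lies 136 bases from the start of Il18r1, yet mean levels for Il1rl1 were 1.15 ± 1.63 CPM (ILC1/3P), 5.89 ± 1.84 (ILCP) and 0 (CLP), and those for Il18r1 were 137 ± 32.1, 117 ± 28.2 and 3.15 ± 3.67 (SD, n = 2, 3 and 3, in the same order). Il18rap starts 14.5 kb further on. Il1r2, the decoy receptor at the other end, had 54.3 and 119 CPM in ILC1/3P, 38.3, 70.8 and 61.4 CPM in ILCP, and 13.3, 22.1 and 47.3 CPM in CLP. It was called higher in ILC1/3P against CLP at a log2 fold change of 1.66 ± 0.54 (adjusted p 0.0435), a call lost with library size only (0.179), with only the 2 populations in the fit (0.0614) and without CLP replicate 1 (0.12), CLP replicate 2 (0.126), ILCP replicate 1 (0.0519), ILCP replicate 3 (0.0683) and ILC1/3P replicate 2 (0.33). Per length it stood above Il1r1 in every library, with FPKM of 17.4 and 34.1 against 1.88 and 0.484 in ILC1/3P. Il1rl2, the IL-36 receptor gene, had 6.09 and 4.96 CPM in ILC1/3P, 0.985 to 2.49 CPM in ILCP and 0 to 2.02 CPM in CLP, and was not called.

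**Figure D4:**
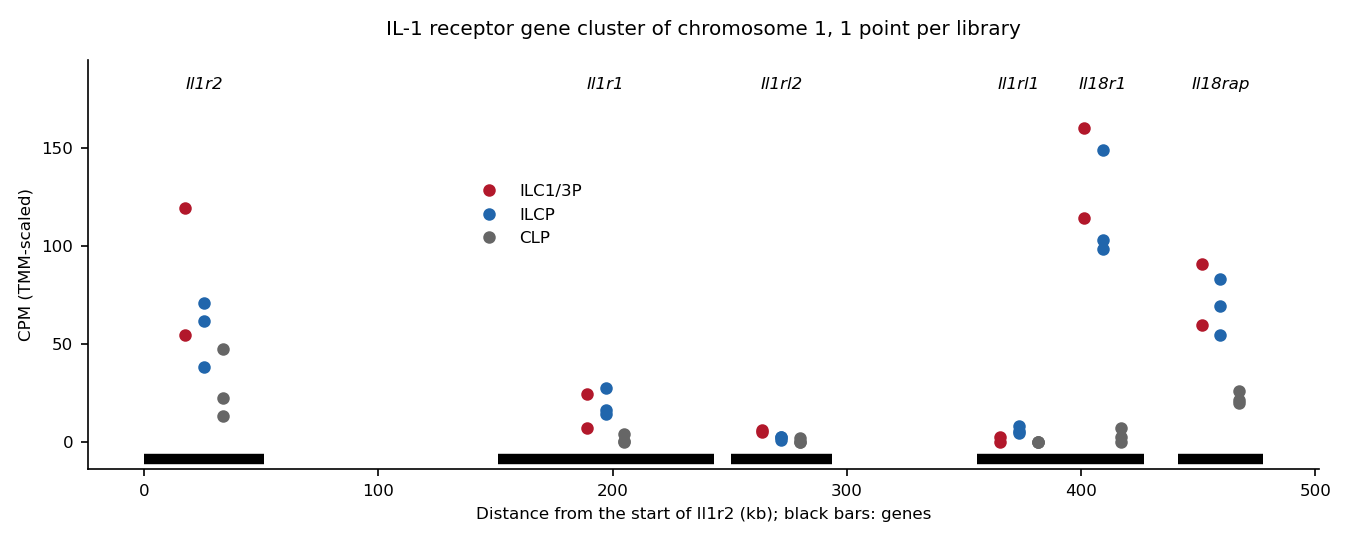
CPM of the 6 receptor genes of the chromosome 1 cluster, 1 point per library, placed by distance from the start of Il1r2 in kb, with black bars for the genes and ILC1/3P left of ILCP and CLP. Il18r1, up to 160 CPM, lies next to Il1rl1, whose highest library is at 7.88 CPM.

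On chromosome 6, Il12rb2 and Il23r are 46.7 kb apart. Of the 45 genes within 100 kb of a receptor gene, 28 were tested. edgeR called 7 of them higher in ILC1/3P against CLP, 2 higher in ILCP against CLP, 4 higher in ILC1/3P against ILCP, and 0 lower in each. Over all genes tested the shares called, in the same order, were 11.8%, 3.91% and 8.06% higher and 11.7%, 2.87% and 8.25% lower.

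Genes with the most similar course over the 8 libraries were found by the root mean square difference in centred log2 CPM, for the 6 receptor genes called in some comparison. The libraries share their populations, so this likeness follows the populations as well. The nearest genes to Il23r were Sh2d1a, which encodes the signalling adaptor SAP, at 0.47, the platelet glycoprotein gene Gp1bb at 0.54, and Rora, a nuclear receptor gene of innate lymphoid progenitors, at 0.55. Nearest to Il17rb was Pdcd1, the gene of the PD-1 gate, at 0.38, then Gp1bb at 0.54 and Fbxo27, a ubiquitin ligase component, at 0.57. Sh2d1a had 20.1 and 48.7 CPM in ILC1/3P, 107, 173 and 125 CPM in ILCP and 0 in CLP, in the same order of populations as Il23r. Among the 3 nearest to Il12rb1 were the Ikaros family gene Ikzf2 at 0.54 and the chemokine receptor gene Ccr2 at 0.59. For Il12rb2 they were Rmdn2 at 0.43, the interferon-inducible gene Gbp8 at 0.58 and Itgb7, the β7 chain of the α4β7 gate, at 0.59. For Il18r1 they were the aquaporin gene Aqp11 at 0.70, Fgl2 at 0.83 and Fhl2 at 0.87. Il18rap lay closest to others, with Tnip1 at 0.22, the thrombin receptor gene F2r at 0.29 and Atp8b4 at 0.30. The differences were not scaled to the size of a gene's change, and Il18rap changed least against CLP of the 6. Tnip1 averaged 9.18, 9.67 and 3.36 CPM in ILC1/3P, ILCP and CLP and was not called.

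Genes of several ligands of these receptors had counts in these libraries, and bulk RNA does not show which cells held them. Of the 5 IL-12 family ligand genes, edgeR called the 2 tested, Il12a and Ebi3, lower in both populations against CLP. Il12a, the p35 chain, had 0 and 6.15 CPM in ILC1/3P, 1.28, 3.32 and 1.83 CPM in ILCP, and 604, 868 and 892 CPM in CLP. The log2 fold change was -8.13 ± 0.98 in ILC1/3P (adjusted p 0.000168) and -8.51 ± 0.82 in ILCP (adjusted p 6.35e-05), and these calls held in all the alternatives run, ILC1/3P having no count left without its replicate 2. The summed markers of the dendritic and B cell lineages were also above both other populations in CLP. The myeloid sum in CLP overlapped with that in ILC1/3P, where most of it was 1 gene, Fcgr3. The summed 10 dendritic markers were at 161 to 200 CPM in ILC1/3P, 61.6 to 83.2 CPM in ILCP and 314 to 557 CPM in CLP. Counts were found for 8, 6 and 8 of them, Clec9a being at 0 in all libraries and Siglech in ILC1/3P and ILCP. Irf8, Tcf4 and Siglech were the largest in CLP, averaging 179, 112 and 67.3 CPM there. Other dendritic markers were lowest in CLP. Batf3 averaged 20.3, 11.1 and 0 CPM in ILC1/3P, ILCP and CLP, Xcr1 13.9, 13.4 and 1.33 CPM, and Zbtb46 4.28, 3.49 and 0.323 CPM. Bst2 was highest in ILC1/3P, averaging 92.2, 5.28 and 29.4 CPM. The 7 B cell markers were at 131 to 172, 154 to 186 and 2259 to 3126 CPM in the same order (5, 7 and 7 with a count), with Pax5 and Igll1 at 0 in ILC1/3P. The 11 myeloid markers in the table were at 712 to 884, 135 to 182 and 744 to 953 CPM (8, 7 and 9 with a count). Of these, Fcgr3 had 642 and 835 CPM in ILC1/3P, 118 to 171 CPM in ILCP and 42.1 to 93.5 CPM in CLP. Mpo had 0.164 and 0 CPM in ILC1/3P and 0 in ILCP, and averaged 534 CPM in CLP. The part of such cells in the Il12a counts was not tested. Il12b and Il23a, which encode the other chain of IL-12 and the IL-23-specific chain, were at 0 in every library. Ebi3, the partner of p35 in IL-35, had 18.9 and 2.84 CPM in ILC1/3P, 8.96, 23.8 and 9.01 CPM in ILCP, and 57.6, 92.7 and 108 CPM in CLP. Its log2 fold change was -2.97 ± 0.77 in ILC1/3P (adjusted p 0.0158) and -2.63 ± 0.64 in ILCP (adjusted p 0.029). The ILC1/3P call was lost without CLP replicate 3 (0.0524) or ILC1/3P replicate 2 (0.0602), its value without ILC1/3P replicate 1 being -4.92, and the ILCP call without CLP replicate 2 (0.0998) or 3 (0.119) or ILCP replicate 1 (0.12) or 3 (0.129). Exons of Ebi3 overlap an antisense gene, Gm16712.

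Of the 6 IL-17 family ligand genes, Il17f alone was tested, and it was called higher in both populations. It had 87 and 12.5 CPM in ILC1/3P, 16.5, 18.5 and 12.2 CPM in ILCP, and 0 in each CLP library, at least 395-fold higher in ILC1/3P (adjusted p 0.000302) and at least 110-fold higher in ILCP (adjusted p 0.0015). ILC1/3P replicate 1 stood well above every other library. Il17a, Il17b, Il17c, Il17d and Il25 were at 0 throughout. Of the 15 IL-1 family ligands and antagonists, 11 were in the table and 3 were tested, with 0 called by edgeR in each comparison. At an unadjusted p under 0.05, 0 passed in ILC1/3P against CLP, 2 in ILCP against CLP and 1 in ILC1/3P against ILCP, and DESeq2 called 0, 3 and 1. Il18, the ligand of the IL-18 receptor, had 10 and 0.473 CPM in ILC1/3P, 0, 0 and 1.69 CPM in ILCP, and 8.05, 15.5 and 20.6 CPM in CLP, and Il33, the ST2 ligand, had counts in ILCP replicates 2 and 3 alone, at 18.7 and 3.1 CPM. Il1a, a ligand of IL1R1, reached 11.3 CPM in ILCP replicate 3 and at most 0.853 CPM in any other library.

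Among the other receptors of the families, 10 genes with 6 tested, edgeR called 1 higher and 2 lower in ILC1/3P against CLP, 0 higher and 1 lower in ILCP against CLP, and 0 in ILC1/3P against ILCP. At an unadjusted p under 0.05 in the last comparison, 0 were higher and 3 lower, and DESeq2 called 0 and 2. Il17ra, the partner of IL17RB and IL17RE, had 2.63 and 25.3 CPM in ILC1/3P, 3.13, 3.59 and 15.1 CPM in ILCP, and 93.7, 62 and 56.3 CPM in CLP. It was called lower in ILCP at a log2 fold change of -3.28 ± 0.81 (adjusted p 0.0321), but not without CLP replicate 1 (0.115), 2 (0.0836) or 3 (0.079) or ILCP replicate 1 (0.121) or 2 (0.122). In ILC1/3P it had -2.35 ± 0.92 (adjusted p 0.0872). Sigirr, an inhibitory receptor of the IL-1 family, had 3.45 and 13.9 CPM in ILC1/3P, 47.8, 18.2 and 38 CPM in ILCP, and 79, 46.5 and 48.6 CPM in CLP. It was lower in ILC1/3P than in CLP at -2.75 ± 0.67 (adjusted p 0.0113, and 0.0508 without ILC1/3P replicate 1). Il6st, the gp130 chain of the IL-27 and IL-35 receptors, had no count in ILC1/3P and was at least 21.1-fold lower there than in CLP (adjusted p 0.038), a call lost without CLP replicate 1 (0.0842) or 2 (0.104), ILCP replicate 3 (0.0552), or ILC1/3P replicate 1 (0.116) or 2 (0.114).

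**Figure D5:**
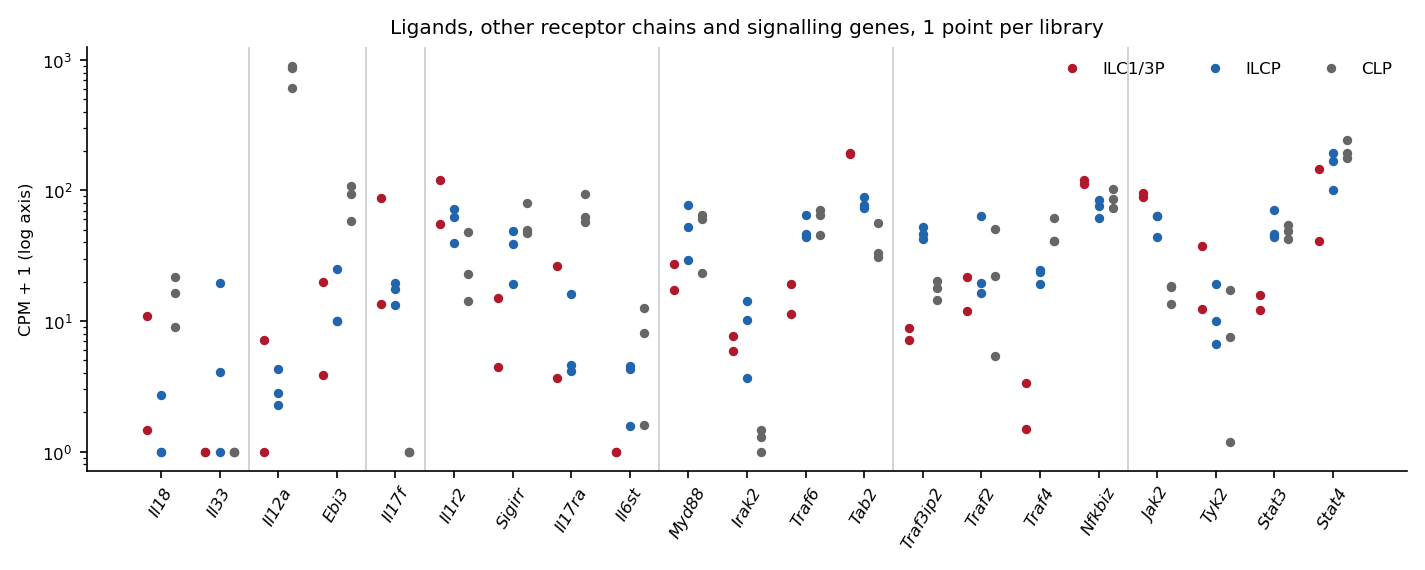
CPM + 1, on a log axis, of ligand, partner receptor and signalling genes of the same pathways, 1 point per library, with ILC1/3P left, ILCP in the middle and CLP right, and grey lines between the lists. Il12a reached 892 CPM in CLP and at most 6.15 CPM elsewhere, while Jak2 was higher in ILC1/3P and ILCP than in CLP.

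Downstream, the kinase and the transcription factors of the IL-12 and IL-23 receptors did not move together. Of these 4 genes, edgeR called 1 higher and 1 lower in ILC1/3P against CLP, 1 higher and 0 lower in ILCP against CLP, and 0 higher and 1 lower in ILC1/3P against ILCP. Jak2, the kinase that binds IL12RB2 and IL23R, had 87.3 and 93.8 CPM in ILC1/3P, 63.1, 43.3 and 63.2 CPM in ILCP, and 17.3, 17.5 and 12.6 CPM in CLP. It was higher than in CLP by 2.52 ± 0.35 in ILC1/3P (adjusted p 0.000407) and by 1.84 ± 0.32 in ILCP (adjusted p 0.00453) on the log2 scale, and these calls held in all the alternatives run. Stat3, which carries the IL-23 signal, had 11.2 and 14.7 CPM in ILC1/3P, 69.5, 45.3 and 43.2 CPM in ILCP, and 53.5, 41.2 and 47.9 CPM in CLP. Its log2 fold change was -1.88 ± 0.42 against CLP (adjusted p 0.00692) and -2.03 ± 0.42 against ILCP (adjusted p 0.00754), with exons that share 72 bases with Stat5a. Stat4, which carries the IL-12 signal, had 144 and 40.2 CPM in ILC1/3P, 100, 167 and 191 CPM in ILCP, and 177, 241 and 191 CPM in CLP, and was not called.

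Of the 7 genes of IL-17 receptor signalling, edgeR called 0 higher and 1 lower in ILC1/3P against CLP, 0 in ILCP against CLP, and 0 higher and 2 lower in ILC1/3P against ILCP. In ILCP against CLP, 1 was higher and 1 lower at an unadjusted p under 0.05, and DESeq2 called 1 higher and 0 lower. Traf3ip2, which encodes the adaptor Act1 that docks on the receptors, had 6.09 and 7.8 CPM in ILC1/3P, 41.2, 45.2 and 51.8 CPM in ILCP, and 16.9, 19.3 and 13.6 CPM in CLP. ILCP, the population with most Il17rb, was highest in all its libraries. The log2 fold change was -2.73 ± 0.5 in ILC1/3P against ILCP (adjusted p 0.00406) and 1.47 ± 0.4 in ILCP against CLP (adjusted p 0.0511, not called), and an antisense gene overlaps its exons. Traf4, another gene of this list, had 0.493 and 2.36 CPM in ILC1/3P, 22.6, 18.1 and 23.5 CPM in ILCP, and 60.3, 40.1 and 40.3 CPM in CLP. It was lower in ILC1/3P than in CLP (log2 fold change -5.08 ± 0.73, adjusted p 0.000462) and than in ILCP (-3.95 ± 0.7, adjusted p 0.00332).

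Of the 12 genes of signalling from the TIR domain, the intracellular part that IL-1 family receptors share with Toll-like receptors, edgeR called 2 higher and 1 lower in ILC1/3P against CLP, 1 higher in ILCP against CLP, and 1 higher and 1 lower in ILC1/3P against ILCP. Tab2, an adaptor of the kinase TAK1, had 191 and 189 CPM in ILC1/3P, 71.7, 88.4 and 75.9 CPM in ILCP, and 29.9, 55.6 and 32.3 CPM in CLP. It was higher in ILC1/3P than in CLP (2.28 ± 0.32, adjusted p 0.000454) and than in ILCP (1.27 ± 0.32, adjusted p 0.019). The second call was lost with library size only (0.171) and with any of 4 libraries left out: ILCP replicate 1 (0.0699), ILCP replicate 3 (0.0652), ILC1/3P replicate 1 (0.0558) and ILC1/3P replicate 2 (0.0676). Traf6, the ubiquitin ligase of the pathway, had 18.1 and 10.4 CPM in ILC1/3P, 43.2, 45.2 and 63.6 CPM in ILCP, and 69.3, 63.8 and 44.9 CPM in CLP. It was lower in ILC1/3P than in CLP (-2.05 ± 0.43, adjusted p 0.00519) and than in ILCP (-1.82 ± 0.43, adjusted p 0.0141), the second call being lost without ILCP replicate 3 (0.0515) or ILC1/3P replicate 2 (0.0928). Irak2, a kinase of the receptor complex, had 4.93 and 6.62 CPM in ILC1/3P, 13.2, 9.26 and 2.67 CPM in ILCP, and 0.453, 0 and 0.296 CPM in CLP. It was called in ILC1/3P (4.36 ± 1.35, adjusted p 0.0363) and in ILCP (4.90 ± 1.33, adjusted p 0.0486) against CLP. These calls were lost in 9 and 8 of the 14 alternatives, at adjusted p-values up to 0.137 and 0.15, among them each fit without 1 CLP library. Myd88, the adaptor through which IL-1 family receptors signal, had 26.5 and 16.3 CPM in ILC1/3P, 51.3, 28.1 and 76.2 CPM in ILCP, and 58.9, 63.5 and 22.4 CPM in CLP, and was not called.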

How the data were processed

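Bulk RNA-seq libraries of ILC1/3P (2), ILCP (3) and CLP (3) were grouped and numbered by the sample titles. Per the labels' protocols, cDNA was made in the lysate of sorted cells with a SMARTer Ultra Low kit, amplified by PCR and sequenced on a NovaSeq6000. The authors deposited raw whole-number counts for each gene, and their own FPKM values beside them. The submitters' processing notes name mm10 as the build, and which aligner, counter, annotation or strand setting was used is not given in the sources used here. The protocols describe no molecular identifiers, so floors cover counting error only. No value column was left unmapped (0).

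Counts of all 8 libraries were fitted with edgeR 4.0.16 in R 4.3.3 (filterByExpr, which kept 13436 of 34745 genes, TMM, a robust quasi-likelihood test, 1 mean per population), with two-sided p-values adjusted by Benjamini-Hochberg over all genes tested and called under 0.05. The common biological coefficient of variation came to 0.679, on 5 residual degrees of freedom. CPM is per TMM-adjusted library size, as mean ± SD over libraries, and SEs derive from the F statistic. The median log2 fold change over all genes tested was -0.25 in ILC1/3P against CLP and -0.23 against ILCP, and changes there are to be read relative to it. With library size only these were -0.93 and -0.86. Where a group had no count, the lower bound of a fold uses 3 counts, pooled over the libraries of that group, as its floor. Replicate libraries differed beyond sampling noise (chi-square per degree of freedom 24.5 to 54.3). The programs were tested on simulated counts.

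Alternatives were library size only, DESeq2 size factors, DESeq2 1.42.0, no filter on low counts, the 2 groups alone, the replicate number as a block, and each library left out. The runs on pathway genes, and the GENCODE exon length, were added after seeing the data. All 10 receptor genes were matched to GENCODE M21 (9 at an identical locus) for exon lengths and overlaps. The receptor genes and all gene lists were chosen with earlier results of these data known. Named besides the receptors were, per pathway list, up to 4 genes of the smallest p with at least 5 CPM in some population, genes within 100 kb, and the 3 most alike genes of each called receptor gene with at least 10 CPM (log2 CPM, prior count 2, predicted genes left out). Not every gene the rule takes is reported here. Il2ra, Itga4, Hdc, Il5, Il13, Mpo, Siglech, Pax5, Igll1, Il1a, Il12b, Il23a and the absent IL-17 ligands were named after their values were seen. So were Cma1, Gata2, Fcgr3, Ltb, Cd3d, Cd3e, Cd3g, Cd8a, Trbc1 and Trbc2. The same holds for Irf8, Tcf4, Batf3, Xcr1, Zbtb46, Bst2, Nkg7, Klrb1c, Arg1, Icos, Klrg1, Areg and Hpgds. Counts are uncertain where exons overlap another gene, as for Il1rap, Il17rb, Il12rb2, Ebi3, Myd88, Irak2, Traf3ip2, Stat3, Stat4, Gbp8, Gp1bb, Ikzf2, Rora and Sh2d1a.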

Additional observations from a re-analysis of the deposited data

How the results depend on the processing

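Depth and the number of libraries limit these results: ILC1/3P has 2 libraries, and several receptor genes rest on under 100 counts per library. Of the 179 receptor gene values recomputed with all libraries, 153 kept their direction and their side of the threshold, and of 239 with 1 library left out, 211 did. Il17rb and Il23r kept their calls against CLP in every alternative, and so did Il18r1 and Il12rb1 in ILC1/3P against CLP.

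The number of receptor genes called higher in ILCP against CLP, 5, became 9 with DESeq2 and 8 with no filter on low counts, and ran from 3 to 7 with 1 library left out. The lowest value came without CLP replicate 3 or ILCP replicate 3. The number called lower in ILC1/3P against ILCP, 0, became 2 with library size only, with DESeq2 and with no filter, and ran from 0 to 2, with 2 without ILC1/3P replicate 2. For ILC1/3P against CLP, 6 became 5 to 8.

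Over all genes, ILCP against CLP gave 526 higher and 386 lower, DESeq2 gave 931 and 808, no filter gave 602 lower, and leaving out 1 library gave 347 to 613 higher and 215 to 502 lower. ILC1/3P against CLP gave 1592 and 1571, with 946 and 2807 by library size only. ILC1/3P against ILCP gave 1083 and 1109, with 474 and 2141 by library size only, 1757 lower by DESeq2, and 623 to 1066 higher and 689 to 1233 lower with 1 library left out. The cause was not tested.

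The values that changed sign were never called. By library size only, Il18r1, Il18rap and Il12rb2 in ILC1/3P against ILCP were at -0.38, -0.49 and -0.18. With 1 library left out, values in that comparison ran from -0.036 to 0.49 for Il18r1, -0.21 to 0.41 for Il18rap, -1.43 to 0.36 for Il1r1, -2.51 to 1.82 for Il1rap and -0.033 to 0.80 for Il12rb2, and Il1rap in ILC1/3P against CLP ran from -4.03 to 0.14. ILC1/3P replicate 1 or 2 gave the end of opposite sign, except that Il18rap (-0.02) and Il1r1 (0.11) also changed sign without ILCP replicate 1 and 2, in that order. Il1rl1 had no value in ILC1/3P against CLP without ILC1/3P replicate 1 or with the 2 groups alone.

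Deviations from the population mean had correlations of -0.0332 to 0.0867 for same-numbered libraries and -0.093 to 0.0332 for the others. The highest were CLP 1 with ILCP 1 (0.0867) and CLP 2 with ILCP 2 (0.0566). Centring within 2 or 3 libraries ties these values together, so they cannot show whether libraries were paired. The main fit treated the libraries as unpaired. With the replicate block, Il12rb1 in ILCP against CLP had an adjusted p of 0.0531, Il18r1 in ILC1/3P against ILCP a log2 fold change of -0.19, and Irak2, Ebi3 and Il6st lost their calls against CLP.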
